A study of Mus musculus with 2 samples.

Results

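A set of 34 genes of fatty acid activation and beta-oxidation was read on the microarrays of RAW264.7 cells treated with vehicle control or IR-61. The set was a given list of gene names that cover the route of a fatty acid from its activation to the last step of its breakdown. Probes were named through their RefSeq accessions, and all 34 genes had a probe and were well above background on both arrays, among 16885 of 20655 named genes that were. RAW264.7 is an established macrophage line grown from an ascites tumour that the Abelson leukemia virus caused in an adult male BALB/c mouse, and a tumour line is a limited model of the macrophages of a tissue. IR-61 is a heptamethine cyanine dye. Both groups were kept in DMEM with heat-inactivated fetal bovine serum for 24 h, the first with vehicle and the second with IR-61 at 10 μM, to see how the dye changes the genes that macrophages express. Each group was 1 culture, hybridized to 1 single-colour Agilent array, and slide and scan were shared by the groups. No test could be run on 1 array per group, and an effect of IR-61 and a chance difference between the cultures cannot be told apart.

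Fatty acids are broken down only after they have been joined to coenzyme A by acyl-CoA synthetases. Long-chain acyl groups are then carried into mitochondria on carnitine, and the beta-oxidation spiral shortens them through dehydrogenation, hydration, a further dehydrogenation and thiolysis, while peroxisomes shorten very long and branched chains. In macrophages, fatty acid oxidation is known as a fuel pathway of resting and alternatively activated cells, whereas inflammatory activation is accompanied by glycolysis and fatty acid synthesis.

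The genes lower with IR-61 by 1.5-fold or more were *Slc25a20* and *Cpt1a* of the carnitine shuttle, *Acsl5* and *Slc27a1* of fatty acid activation and uptake, and the thioesterase *Acot2*. Those higher by 1.5-fold or more were *Acsl3* and *Cpt1b*, and no enzyme of the mitochondrial spiral itself passed this limit after scaling. In all, 5 of 34 genes were lower by 1.5-fold or more, against 5.69% of all measured genes, and 2 of 34 were higher, against 9.79%. The count of higher genes was 0 with each of the other scalings, in the deposited values and with normexp background correction, where 3 were lower, and without scaling 12 were higher and 0 lower. With the main scaling no gene of the set was higher or lower by 2-fold or more, and without scaling *Acsl3*, *Cpt1b* and *Eci2* were higher. With the main scaling 1.99% of all measured genes were higher by 2-fold or more and 1.39% lower. These shares are a description of the same pair of arrays, and a difference between the set and all genes was not tested.

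Values were the log2 signal of the brightest probe of each gene minus the 75th percentile of its array, and differences were taken as the IR-61 array minus the vehicle array. The 75th percentile was 10.30 with vehicle and 10.79 with IR-61, so the IR-61 array was the brighter one and a gene with equal signals on both arrays has a negative difference. After this scaling the median of all measured genes was 0.10, and leaving the scaling out shifted it to 0.59. The median of the 34 genes was 0.02 with scaling and 0.51 without it. Measured from the median of all genes, the median of the set was −0.08 both ways, between −0.10 and −0.05 with the other scalings and 0.01 with normexp background correction. Below the median of all genes lay 22 of the 34 genes, 19 with loess and 17 with normexp. The lower quartile of all genes was −0.15 and the upper quartile 0.34, and 14 genes of the set lay below this range, 15 within it and 5 above it. Across all measured genes 36.7% of those past 1.5-fold were lower, and this share was 51.9% with scaling by the median, 47.0% with quantile normalization, 48.6% with loess, 46.8% in the deposited log2 values and 2.2% without scaling. The 5 genes lower by 1.5-fold or more had a lower signal on the IR-61 array even before scaling and were the only ones of the 34 that did. The same 5 passed the limit with each of the other scalings that were run, but none passed it without scaling.

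The error that can be given is the spread among repeat spots of a probe within an array. From probes printed 10 times and well above background, this SD was 0.070 on the log2 scale with vehicle and 0.063 with IR-61 where the log2 signal was above 10. At log2 signals from 6 to 10 the SDs were 0.179 and 0.146, and at lower signals 0.350 and 0.301. The SD of a difference expected from it is given below as the spot SD, and it holds no difference between cultures.

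**Figure D1:**
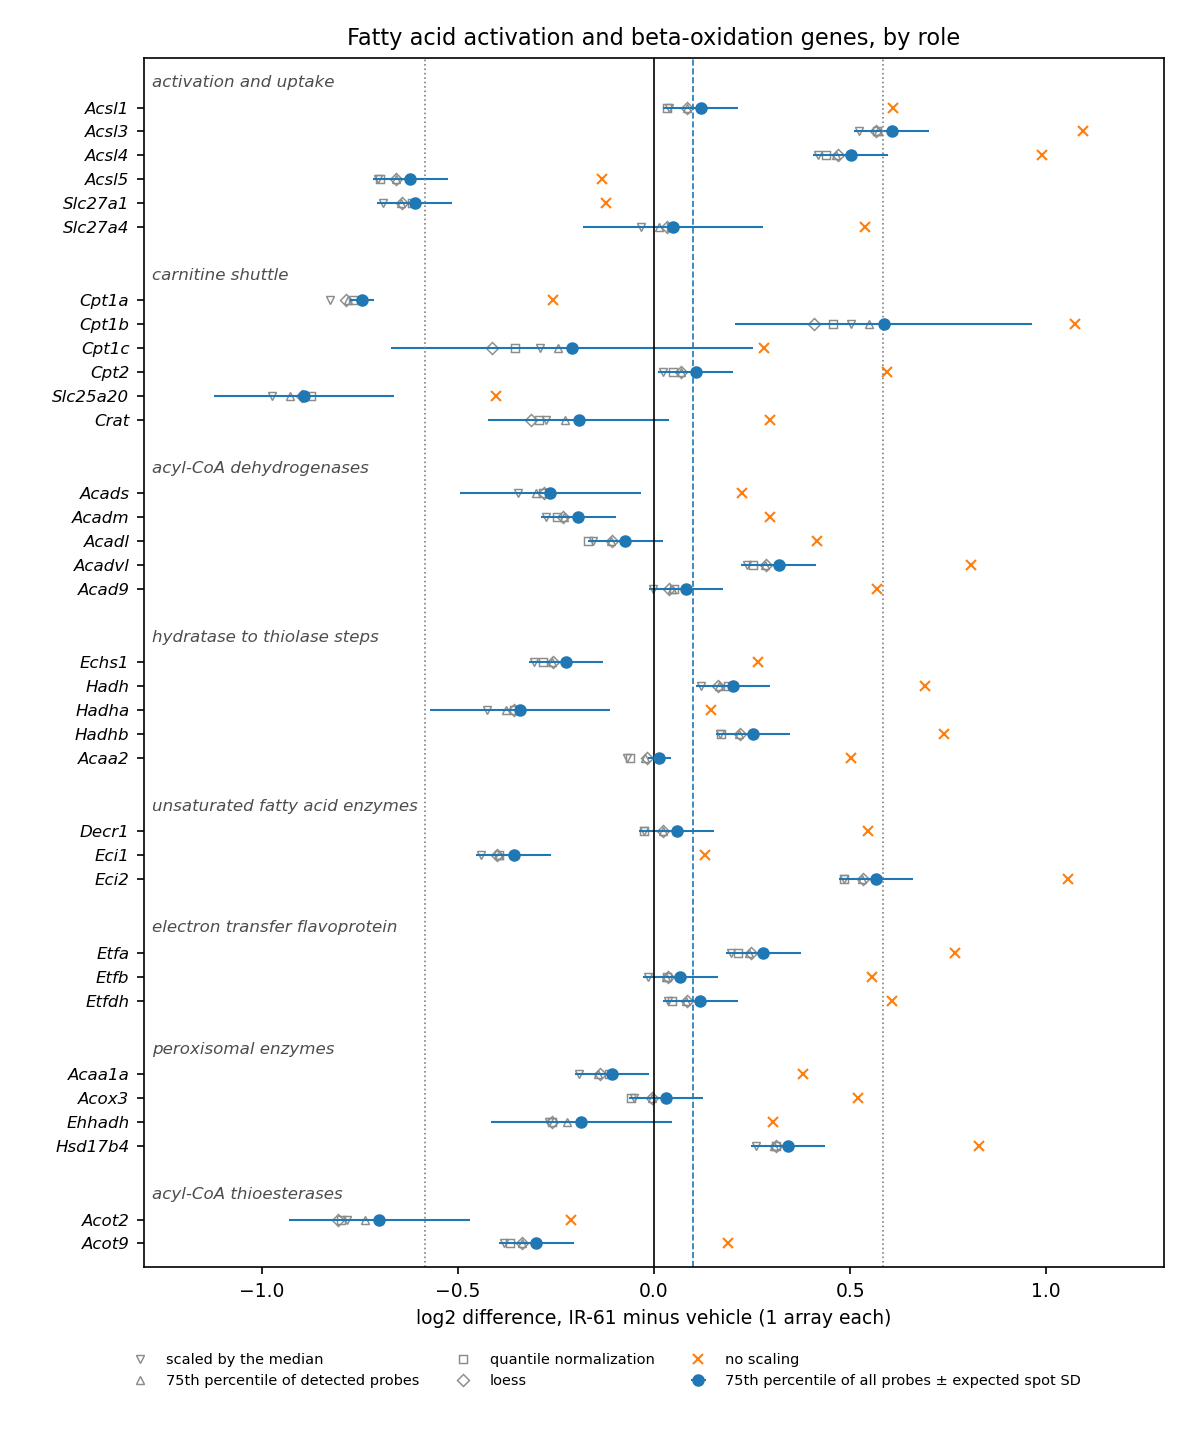
Log2 difference of each of the 34 genes, IR-61 minus vehicle, with 1 array each. Filled circles are the scaled values with bars of 1 spot SD, open symbols the other scalings and crosses the values without scaling, the dashed line marks the median of all measured genes at 0.10 and the dotted lines the 1.5-fold limit. *Slc25a20*, *Cpt1a*, *Acot2*, *Acsl5* and *Slc27a1* lie left of the limit with every scaling and between it and 0 without scaling, while *Acsl3* and *Cpt1b* lie right of it with the main scaling and without scaling but not with the others.

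Long-chain acyl-CoA synthetases activate fatty acids, and the members of this family differed in both directions. *Acsl5*, a synthetase of mitochondria and the endoplasmic reticulum, had a signal of 7150 with vehicle and 6520 with IR-61, or 1.54-fold lower (log2 difference −0.62), with a spot SD of 0.095. *Acsl3*, which serves lipid droplets and the endoplasmic reticulum, had signals of 1648 and 3518 and was 1.52-fold higher, with a log2 difference of 0.61. It was higher with every scaling but stayed under the 1.5-fold limit with the others except without scaling, at 0.52 with scaling by the median. *Acsl4*, which prefers arachidonic acid, had signals of 14049 and 27893 and a difference of 0.50, just under the limit. *Acsl1*, the broad synthetase that feeds both oxidation and lipid synthesis, had signals of 6137 and 9351 and a difference of 0.12. Its second probe, at 754 and 923, had a difference of −0.20, which is within its spot SD of 0.23 of 0.

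The fatty acid transport proteins take up fatty acids and activate them at membranes. *Slc27a1*, known from muscle and fat, had signals of 1785 and 1641 and was 1.53-fold lower, at −0.61 on the log2 scale. Its value was −0.54 under normexp background correction, which is under the 1.5-fold limit. *Slc27a4*, a more widely expressed transporter, had signals of 245 and 355 and a difference of 0.05, which turned to −0.03 with scaling by the median. Its spot SD was 0.23. The 6 genes of activation and uptake thus held 2 of the 5 lower genes and 1 of the 2 higher ones.

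The carnitine shuttle is the gate for long-chain fatty acids into the mitochondrion, and it held the largest fall of the set. *Slc25a20* encodes the translocase that exchanges acylcarnitine for free carnitine across the inner membrane. Its signal was 466 with vehicle and 352 with IR-61, or −1.44 and −2.33 after scaling, so that it was 1.86-fold lower (log2 difference −0.89). Only 1.9% of all measured genes had a lower difference. The value lay between −0.97 and −0.84 with the scaled settings and was −0.40 without scaling, and the spot SD was 0.23.

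*Cpt1a* encodes the outer-membrane carnitine palmitoyltransferase that malonyl-CoA inhibits and that is regarded as the main control point of the pathway. Its probe was printed 10 times on each array, and its signal was 3079 with vehicle and 2578 with IR-61. The scaled log2 signals of the vehicle spots ran from 1.20 over a median of 1.28 to 1.38, and those of the IR-61 spots from 0.45 over 0.54 to 0.63. No spot of the IR-61 array reached a spot of the vehicle array. Differences larger than the spread of spots were common on this pair of arrays. Of all measured genes 36.9% lay more than 2 spot SDs from the median of all genes, and of the 34 genes 16 did. The difference was −0.74, or 1.68-fold lower, with a spot SD of 0.030, and 3.1% of all measured genes had a lower one. A second probe of *Cpt1a*, with signals of 203 and 202, had a difference of −0.50, in the same direction but under the 1.5-fold limit. Its signals were nearly equal before scaling, so the fall of this probe comes from the scaling. Without scaling the difference of the brightest probe was −0.26.

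The other forms of the enzyme gave weaker readings. *Cpt1b*, the muscle form, was dim, with signals of 39.7 and 83.5, and its difference of 0.59 stood at the 1.5-fold limit with a spot SD of 0.379. With normexp background correction it was 0.08. *Cpt1c*, the form known from neurons, had signals of 42.8 and 52.0 and a difference of −0.21, within its spot SD of 0.462, and 0.28 without scaling. Another probe of *Cpt1c*, named here after its values were seen, was not well above background with vehicle and well above it with IR-61, at signals of 13.2 and 48.6, so that the probes of this gene disagree.

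The other enzymes of the shuttle did not pass the 1.5-fold limit with the main scaling. *Cpt2*, the inner-membrane enzyme that hands the acyl group back to coenzyme A, had signals of 4630 and 6989 and a difference of 0.11, or 0.33 with normexp. *Crat*, which moves acetyl and short acyl groups between coenzyme A and carnitine, had signals of 78.9 and 96.9 and a difference of −0.19, or 0.30 without scaling. The scaled difference of *Crat* is below the lower quartile of all genes but within its spot SD of 0.23 of 0.

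**Figure D2:**
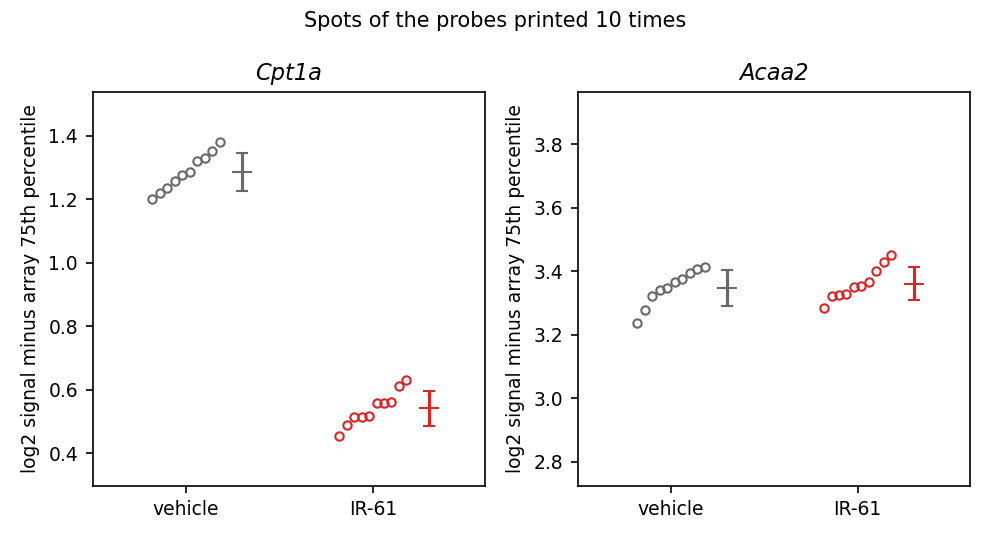
Scaled log2 signal of each spot of the probes of *Cpt1a* and *Acaa2*, which were printed 10 times, on the vehicle and the IR-61 array, sorted by value within an array, with the mean and SD between spots beside them. The spots of *Cpt1a* with IR-61 lie below those with vehicle, at a median of 0.54 against 1.28, while those of *Acaa2* overlap, at 3.35 against 3.36. Both axes span the same range, and without scaling *Cpt1a* remains lower, at −0.26, and *Acaa2* is higher, at 0.50.

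The acyl-CoA dehydrogenases open each turn of the spiral, and each of them prefers a range of chain lengths. *Acadvl*, for very long chains, had signals of 15746 and 27545 and a difference of 0.32. *Acadl*, for long chains, had signals of 7196 and 9597 and a difference of −0.07, or 0.41 without scaling. *Acadm*, for medium chains, had signals of 4333 and 5318 and a difference of −0.19, or 0.30 without scaling. *Acads*, for short chains, had signals of 256 and 299 and a difference of −0.26, or 0.22 without scaling. Listed from very long to short chains, the differences thus went from above the median of all genes to below it, with a spot SD of 0.095 for all but *Acads*, where it was 0.23. This order was seen in 4 genes on 1 array per group and was not tested. *Acad9*, which is needed chiefly for the assembly of respiratory complex I, had signals of 2619 and 3886 and a difference of 0.08, which turned to −0.002 with scaling by the median.

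The next steps of the spiral are carried out by soluble enzymes for shorter chains and by the trifunctional protein for long chains. *Echs1*, the short-chain enoyl-CoA hydratase, had signals of 17836 and 21419 and a difference of −0.22, or 0.26 without scaling. *Hadh*, the hydroxyacyl-CoA dehydrogenase of shorter chains, had signals of 1753 and 2827 and a difference of 0.20. The trifunctional protein is built from the subunits of *Hadha* and *Hadhb*, and these went opposite ways after scaling. *Hadha*, with the hydratase and dehydrogenase activities, had signals of 285 and 315 and a difference of −0.34, or 0.15 without scaling. *Hadhb*, with the thiolase activity, had signals of 10497 and 17530 and a difference of 0.25, or 0.74 without scaling. The probe of *Hadha* was far dimmer than that of *Hadhb*, with a spot SD of 0.23 against 0.095. *Acaa2*, the other thiolase of the mitochondrial matrix, was printed 10 times and had signals of 12858 and 18207. Its spots ran from 3.24 to 3.41 with vehicle and from 3.28 to 3.45 with IR-61 after scaling, so that the arrays overlapped, and the difference was 0.01. It was −0.07 with scaling by the median and 0.50 without scaling, so its direction depended on the scaling.

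Unsaturated fatty acids need further enzymes that move or remove their double bonds. *Eci2*, an enoyl-CoA isomerase of mitochondria and peroxisomes, had signals of 10191 and 21169 and a difference of 0.57, the value just under the 1.5-fold limit. *Eci1*, the mitochondrial isomerase, had signals of 3260 and 3568 and a difference of −0.36, or 0.13 without scaling. *Decr1*, the mitochondrial dienoyl-CoA reductase, had signals of 6484 and 9467 and a difference of 0.06, which was −0.03 with scaling by the median and with quantile normalization. The spot SD of both isomerases was 0.095.

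Electrons from the dehydrogenases pass through the electron transfer flavoprotein to ubiquinone. *Etfa*, its alpha subunit, had signals of 15734 and 26778 and a difference of 0.28. A second probe of *Etfa*, with signals of 3206 and 3639, had a difference of −0.31, and the mean over both probes was −0.01. This was the only member in which another probe well above background on both arrays differed from the brightest by more than 0.58. After scaling the direction of *Etfa* therefore rests on the choice of probe. Without scaling both probes were higher with IR-61, the brightest at 0.77. *Etfb*, the beta subunit, had signals of 28128 and 41331 and a difference of 0.07, which was −0.02 with scaling by the median. *Etfdh*, the dehydrogenase that passes the electrons on, had signals of 13054 and 19869 and a difference of 0.12.

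The peroxisomal enzymes gave small differences in both directions. *Hsd17b4*, the D-bifunctional protein that hydrates and dehydrogenates very long and branched chains, had signals of 25648 and 45571 and a difference of 0.34. *Ehhadh*, the L-bifunctional protein, had signals of 116 and 143 and a difference of −0.18, within its spot SD of 0.23 of 0, or 0.30 without scaling. *Acox3*, an oxidase of branched-chain acyl-CoA, had signals of 6943 and 9948 and a difference of 0.03, which was −0.05 with scaling by the median. *Acaa1a*, a peroxisomal thiolase, had signals of 34192 and 44528 and a difference of −0.11, or 0.38 without scaling. Its close paralog *Acaa1b* had a difference of −0.42, or 0.07 without scaling. Since the transcripts of these paralogs are nearly identical, which of them each probe reads is uncertain.

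Acyl-CoA thioesterases release fatty acids from coenzyme A again. *Acot2*, the mitochondrial enzyme for long chains, was dim, with signals of 108 and 92.8, and was 1.63-fold lower, with a difference of −0.70 and a spot SD of 0.23. It was −0.49 with normexp background correction and −0.21 without scaling. Its neighbour and near-identical paralog *Acot1*, a cytosolic enzyme, had signals of 990 and 1772 and a difference of 0.35. What the probe of each of these paralogs binds was not tested, and the fall of *Acot2* is uncertain for this reason too. *Acot9*, another mitochondrial thioesterase, had signals of 6034 and 6873 and a difference of −0.30, or 0.19 without scaling.

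The dim probes took part in these counts. Of the 34 genes, 25 had a mean log2 signal of 10 or more, and among them 3 were lower and 1 was higher by 1.5-fold or more. Of the 7505 genes with such signals on the whole array, 4.72% were lower and 8.26% higher by this limit. The median difference was 0.07 over the 25 bright genes of the set and 0.10 over all bright genes, so that these medians lay close together. The bright genes past the limit were *Cpt1a*, *Acsl5*, *Slc27a1* and *Acsl3*, and the dimmer ones were *Slc25a20*, *Acot2* and *Cpt1b*.

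Other genes of the pathway were taken from lists, whose counts stand beside 9.79% of all measured genes higher and 5.69% lower by 1.5-fold or more. Without scaling, of the genes of these lists counted below as lower, only *Angptl4*, at −0.89, and *Scd1*, at −0.88, stayed past the 1.5-fold limit and neither passed 2-fold, while all those counted as higher passed 2-fold. Among other enzymes and transporters of fatty acid oxidation, 31 of 32 genes were measured on both arrays, with *Acsl6* not well above background on either, and their median was 0.28. In this list 3 genes were higher and 1 was lower by 1.5-fold or more, and 1 was higher by 2-fold or more. Its median was 0.77 without scaling, itself past the 1.5-fold limit, so that many more of its genes were higher there. *Slc27a2*, a very-long-chain acyl-CoA synthetase, had dim signals of 23.8 and 70.6 and was 2.11-fold higher, at 1.08 on the log2 scale, but at 0.21 with normexp. *Slc27a3* had a difference of 0.77 and *Abcd2*, a peroxisomal transporter of very long chains, of 0.64, and normexp brought them to 0.46 and 0.49, under the limit. *Decr2*, the peroxisomal counterpart of *Decr1*, had signals of 522 and 459 and a difference of −0.67, or −0.19 without scaling. The median of this list lay above that of all genes and the median of the 34 genes below it, a contrast that was not tested. With normexp the median of the 34 genes was no longer below that of all genes, at 0.01 from it.

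Regulators of fatty acid oxidation had a median of 0.28 over 18 measured genes, with 2 higher and 2 lower by 1.5-fold or more and none past 2-fold. The median was 0.77 without scaling, itself past the 1.5-fold limit, so that many more genes of the list were higher there. Without scaling *Nrip1* and *Prkab2* came to −0.32 and −0.17, inside the limit, and *Ppargc1a* and *Pparg* to 1.29 and 1.16, past 2-fold. *Ppargc1a*, a coactivator that raises oxidative genes in many tissues, had signals of 175 and 428 and a difference of 0.80, which was 0.53 with normexp, under the limit. *Pparg*, a nuclear receptor of fatty acids, was printed 10 times, and its spots ran from 2.33 to 2.57 with vehicle and from 3.07 to 3.23 with IR-61 after scaling, a difference of 0.67. With quantile normalization and in the deposited values it was 0.58, just under the limit. *Nrip1*, a corepressor of oxidative genes, had signals of 624 and 500 and a difference of −0.81. *Prkab2*, a subunit of the AMP-activated kinase, had a difference of −0.65. *Ppara*, the receptor best known for inducing *Cpt1a* in liver, had signals of 601 and 876 and a difference of 0.05, which turned to −0.03 with scaling by the median. A second, dim probe of it, at 24.1 and 58.3, had a difference of 0.79 with a spot SD of 0.462, and the mean over both probes was 0.42.

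Genes known to respond to PPAR receptors had a median of −0.16 over 12 measured genes of 13, or 0.33 without scaling and −0.04 without the filter on dim probes, where *Pdk4* enters. By 1.5-fold or more 3 were lower, *Cpt1a* and *Acot2* of the set above among them, and no gene measured on both arrays was higher. Without scaling 1 remained lower, *Angptl4*, with *Cpt1a* at −0.26 and *Acot2* at −0.21, and *Fabp4* was among those higher, at 0.89. *Angptl4*, a secreted inhibitor of lipoprotein lipase, had signals of 6980 and 3757 and was 2.61-fold lower, with a difference of −1.38, or −0.89 without scaling, which is under 2-fold. With the main scaling it was the only gene of the list measured on both arrays that passed 2-fold. Among these genes the largest difference above 0 was 0.40, for the fatty acid binding protein *Fabp4*. *Pdk4*, a kinase that holds back pyruvate oxidation, was not well above background with vehicle, at 12.9, and had a signal of 45.1 with IR-61, so that it was at least 2.50-fold higher, a log2 bound of 1.32 that became 0.08 with normexp. For this bound the vehicle side was the larger of the probe's signal and the dimmest signal that counted as well above background. *Angptl4* and *Pdk4* thus differed in opposite directions within this list.

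Genes of fatty acid supply and storage had a median of 0.01 over 17 genes, with 2 higher and 1 lower by 1.5-fold or more. The sign of this median turned with scaling by the median, at −0.07. Without scaling it was 0.50, and further genes were past the limit, *Fabp4* at 0.89 among them. *Vldlr*, a lipoprotein receptor, had signals of 189 and 545 and was 2.06-fold higher, with a difference of 1.04, and 0.96 with scaling by the median and 0.83 with normexp, both under 2-fold. *Lpl*, which frees fatty acids from lipoproteins, had a difference of 0.69, while a second bright probe of it had −0.12. *Dgat1*, which completes triglyceride synthesis, had signals of 616 and 528 and a difference of −0.71.

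Fatty acid synthesis, the opposite pathway, had a median of −0.09 over 17 genes, or 0.40 without scaling, with 1 higher and 3 lower by 1.5-fold or more. Further genes were higher by this limit without scaling, *Mcat* with signals of 3435 and 5626 among them. *Scd1*, the stearoyl-CoA desaturase, had signals of 249 and 136 and was 2.58-fold lower, with a difference of −1.37, the only gene of this list past 2-fold, but −0.94 with normexp. *Scd2* had a difference of −0.84 and *Fads1*, a desaturase of polyunsaturated chains, of −0.62. The largest rise was that of *Me1*, which makes NADPH, at 0.61, or 0.23 as the mean over its probes. The TCA cycle, which burns the acetyl-CoA of beta-oxidation, had a median of 0.02 over 18 genes. This was −0.06 with scaling by the median and 0.51 without scaling. With the main scaling no gene of this list was past 1.5-fold, and the differences ran from −0.44 for *Dlst* to 0.47 for *Fh1*. Without scaling all of them moved up by the same amount, *Dlst* to 0.05 and *Fh1* to 0.96, past the limit. The absence of genes past 1.5-fold thus depends on the scaling.

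**Figure D3:**
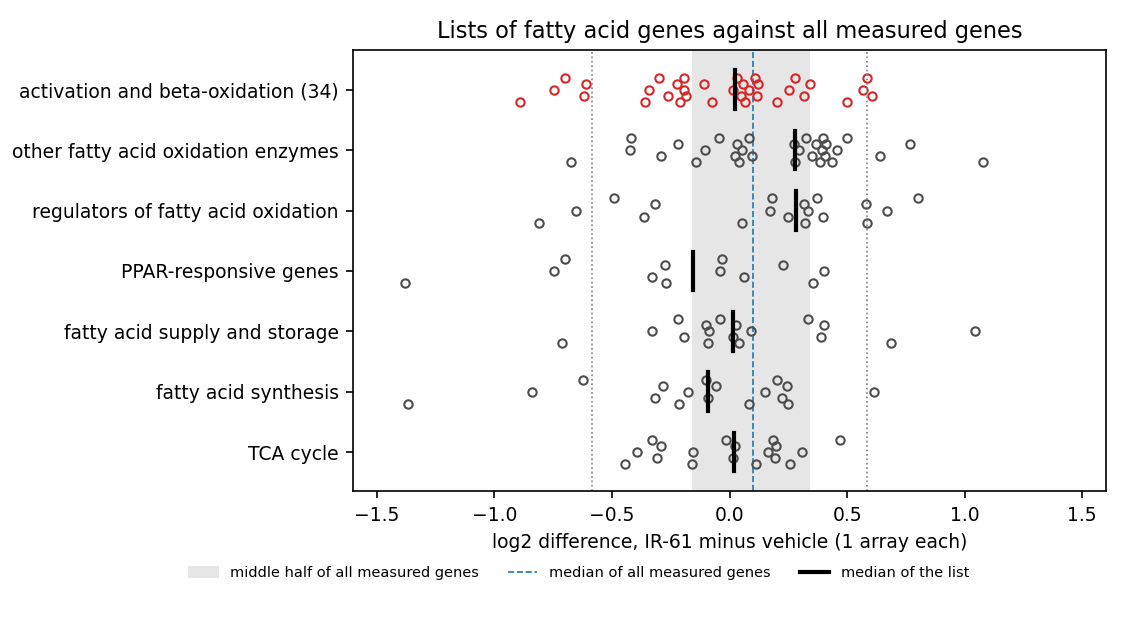
Log2 difference of each measured gene, IR-61 minus vehicle with 1 array each, for the 34 genes of activation and beta-oxidation and for 6 other lists. Bars mark the list medians, the shaded band runs from the lower to the upper quartile of all measured genes and the dotted lines mark the 1.5-fold limit. The median of the 34 genes is 0.02, that of other fatty acid oxidation enzymes and that of regulators 0.28 and that of PPAR-responsive genes −0.16, and all of them are above 0 without scaling.

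Promoter windows of RefSeq on GRCm38.p6, from 250 bases before to 50 bases after a start of transcription, were found for 28 of the 34 genes. They were searched on both strands for the half-site AGGTCA of nuclear receptors, for a direct repeat of 2 such half-sites with 1 base between them, for TCAAGGTCA and for TGACGTCA. The half-site is also contained in the exact repeat and in TCAAGGTCA. It lay in 5 of the 31 windows of these 28 genes and in 16.3% of all 32851 windows. The 5 windows were those of *Acadm*, *Acadvl*, *Cpt1a*, *Cpt1c* and *Echs1*. The repeat with at most 2 mismatches lay in 3 of the 31 windows, of *Echs1*, *Etfa* and *Slc25a20*, and in 3.86% of all windows. The exact repeat, held by 0.0396% of all windows, was in no window of the set, nor were TCAAGGTCA, held by 0.423%, and TGACGTCA, held by 1.79%. A match describes the letters of a window and nothing about binding. The windows of *Slc25a20*, at chr9:108661886-108662185 on the plus strand, and of *Cpt1a*, at chr19:3323051-3323350 on the plus strand, are shown. These genes had the largest falls of the set with the main scaling. *Acot2* fell more than *Cpt1a* with quantile normalization, with loess, in the deposited values and as the mean over probes. The repeat of 2 mismatches and the half-site, which reads on the other strand, are in capitals.
Slc25a20: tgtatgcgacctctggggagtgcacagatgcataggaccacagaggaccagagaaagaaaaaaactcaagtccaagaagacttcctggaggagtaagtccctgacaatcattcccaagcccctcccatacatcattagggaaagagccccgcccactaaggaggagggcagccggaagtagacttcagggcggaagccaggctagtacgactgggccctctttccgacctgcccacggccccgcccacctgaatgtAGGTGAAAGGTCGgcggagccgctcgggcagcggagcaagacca
Cpt1a: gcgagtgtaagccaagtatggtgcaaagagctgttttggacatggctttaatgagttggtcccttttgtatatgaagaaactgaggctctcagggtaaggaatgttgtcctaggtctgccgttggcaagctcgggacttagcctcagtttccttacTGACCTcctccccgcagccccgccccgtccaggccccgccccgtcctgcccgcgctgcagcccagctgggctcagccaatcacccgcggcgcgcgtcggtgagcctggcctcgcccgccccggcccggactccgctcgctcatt

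The 34 genes lay on 17 chromosomes, and *Hadha* and *Hadhb* were the only members next to each other in the gene table. Their promoter windows, at chr5:30154931-30155230 on the minus strand for *Hadha* and chr5:30155003-30155302 on the plus strand for *Hadhb*, overlap by 228 bases, so that the genes start back to back. The window of *Hadhb* is shown with the shared bases in capitals, because the genes of the trifunctional protein differed in direction after scaling, at −0.34 and 0.25, and were both above 0 without it.
Hadhb: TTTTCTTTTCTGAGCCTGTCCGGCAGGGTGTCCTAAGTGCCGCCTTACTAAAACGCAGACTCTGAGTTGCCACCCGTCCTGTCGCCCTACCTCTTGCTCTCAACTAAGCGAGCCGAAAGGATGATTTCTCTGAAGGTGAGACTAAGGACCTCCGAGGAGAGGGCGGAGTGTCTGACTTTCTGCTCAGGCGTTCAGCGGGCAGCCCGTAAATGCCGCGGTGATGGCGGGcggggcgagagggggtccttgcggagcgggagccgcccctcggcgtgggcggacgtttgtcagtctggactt

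The labelled cell type was checked against markers. Of 12 macrophage markers, 11 had a named probe, and all 11 were well above background on both arrays, *Csf1r*, *Adgre1*, *Itgam* and *Tyrobp* among them. Their signals summed to 368709 with vehicle and 569304 with IR-61, and the median of their differences was −0.09, or 0.40 without scaling. By 1.5-fold or more 3 were higher, *Adgre1* at 1.03, *Fcgr1* at 0.99 and *Itgam* at 0.65 (0.39 as the mean over its probes). Lower by this limit were 2, *Cd14* at −0.98 and *Spi1* at −0.83. Without scaling *Cd14* came to −0.49 and *Spi1* to −0.34, inside the limit. Of all measured genes 9.79% were higher and 5.69% lower by 1.5-fold or more with the main scaling. Neither array had *Adipoq*, *Lep* or *Cidea* of 6 adipocyte markers well above background, nor *Apoa1*, *Ttr* or *Fabp1* of 5 hepatocyte markers. The other adipocyte markers were well above background on both arrays. Of these *Fabp4*, which macrophages also express, had signals of 86908 and 161032 and a difference of 0.40, and *Cidec* had signals of 79.3 and 116 and a difference of 0.06, or −0.02 with scaling by the median. *Plin1*, which coats lipid droplets, had dim signals of 16.9 and 52.0 and was 2.19-fold higher, at 1.13, but at 0.20 with normexp. The other hepatocyte markers, *Alb* and *Cyp7a1*, were well above background but dim, with signals of 18.2 and 32.5 and of 23.1 and 39.4. Their differences of 0.35 and 0.28 were within their spot SDs of 0.462, and were −0.13 and −0.08 with normexp. All 5 fibroblast markers were well above background on both arrays, and their signals summed to 64731 and 110195. The collagen gene *Col1a1* had signals of 27147 and 58670 and *Col1a2* of 15029 and 22576. *Dcn* had 16543 and 21738, *Col3a1* 5152 and 5697 and *Pdgfra* 860 and 1515. Defining markers of fibroblasts were therefore read with bright signals in cells labelled as macrophages. The differences of this list had a median of 0.10 and ran from −0.34 for *Col3a1*, or 0.15 without scaling, to 0.62 for *Col1a1*, or 0.54 with scaling by the median. Of 5 lymphocyte markers 4 were well above background on both arrays, all but *Cd3g*, with summed signals of 1268 and 1450 over the 5. Their differences had a median of −0.05, or 0.44 without scaling. They ran from −1.46 for *Ms4a1*, with signals of 353 and 180, to 0.14 for *Cd79a*, which was −0.06 with loess. *Ms4a1* was at −1.07 with normexp and at −0.97 without scaling, which is under 2-fold. The part of any of these markers in the differences of the fatty acid genes was not tested.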

How the data were processed

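The authors deposited the intensity of each spot from Agilent Feature Extraction, after background subtraction and detrending, together with quality flags. The file headers give version 11.0.1.1 and the submitters' processing notes 11.0.0.1. The study's methods name another version, and a scanner other than that of the headers. The authors also deposited log2 values per probe with a median of 7.15 in both columns, whose making is not given in the sources used here. They followed the scanner signals with a Pearson r across 39419 probes of 0.9995 with vehicle and 0.9988 with IR-61. The dose comes from the study's figure legend.

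Control spots and outlier-flagged spots (124 with vehicle, 139 with IR-61) were dropped. No spot was saturated. Spots of a probe were averaged on the log2 scale, and each array was centred on its 75th percentile. Of 39419 probes, 27224 were named through RefSeq accessions of GRCm38.p6, for 20655 genes. The array design gives another assembly, so this table served for names and neighbours only. The share of probes well above background was 77.6% with vehicle and 81.2% with IR-61. Precision is limited by the number of arrays.

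The members and lists were chosen with earlier results of these data known. Every member is given, and of each other pathway or comparison list the counts past 1.5-fold and 2-fold, the median, the largest rise and fall and genes past 2-fold. Further genes of the lists were named after their values were seen. Alternatives were other scalings, the deposited log2 values, normexp on the median signal (offset 50), the mean over probes, outlier spots kept and no filter on dim probes. On the IR-61 array 4 spots with a local background above their signal took the median background before normexp, a choice made after seeing the data. Protein identity was not analysed here. The steps with the main scaling were tested on a simulated array, made from the vehicle array with a uniform shift, spot noise and known changes in some genes. It held no difference between cultures, and the alternatives were not tested on it. The software was R 4.3.3 (limma 3.58.1) and Python 3.11.15 (matplotlib 3.10.9, numpy 2.4.6, pandas 2.3.3).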

Additional observations from a re-analysis of the deposited data

How the results depend on the processing

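No paired analysis was possible because there was 1 array per group, and no replicate could be left out. Values that moved by up to 1 spot SD, and counts within 1.5 times, are read as unchanged. With 10 alternatives, no named gene past 1.5-fold changed direction under any of them. The genes lower by 1.5-fold or more were the same 5 under 8 of the 10 alternatives. With normexp they were 3, *Acsl5*, *Cpt1a* and *Slc25a20*, and without scaling 0. The count of members higher by 1.5-fold or more was 2 and depended on the scaling. It was 0 with the 75th percentile of detected probes, scaling by the median, quantile normalization, loess, the deposited log2 values and normexp, 1 with outlier spots kept, where *Cpt1b* came to stand just under the limit, and 12 without scaling. Without scaling 3 members, *Acsl3*, *Cpt1b* and *Eci2*, were higher by 2-fold or more, against 0 with scaling, and the median of the set was 0.51 in place of 0.02.

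Over all genes, leaving out the scaling gave 8519 genes higher and 193 lower by 1.5-fold or more, against 1653 and 960, and 2156 higher and 72 lower by 2-fold or more, against 336 and 235. These follow from the shift of the median of all genes. With normexp 865 were higher by 1.5-fold or more, 124 higher and 149 lower by 2-fold or more. Without a filter on dim probes 2782 genes were higher by 1.5-fold or more, 921 higher and 440 lower by 2-fold or more, over 20655 genes in place of 16885. Of the genes past 2-fold 41.2% were lower, and 54.2% with scaling by the median, 52.1% with quantile normalization, 53.6% with loess, 51.4% in the deposited values and 3.2% without scaling. The cause of the changes with normexp was not tested. Genes with signals near the lowest that counted as well above background, which was 12.8 on the vehicle array and 15.0 on the other, are the least certain in size.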
